A study of Homo sapiens with 8 samples.

Results

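The 36 genes described here encode proteins of homologous recombination and of the Fanconi anaemia pathway, with the damage checkpoint kinases that act beside them. They were taken by function and by symbol. Each symbol had a single entry in both count tables, out of 32128 symbols that the tables share, and all 36 passed the low-count filter in both lines. RNA was sequenced from NCI-H647 and NCI-H1944, established human lung cancer cell lines labelled as wild type in genotype. In the treated groups, cells received 100 nM BAY-1217389, an inhibitor of the mitotic kinase MPS1 (MPS1i), for 48 hours, and were collected after a further 24 hours without drug. Control cells received DMSO on the same schedule. Each line had 2 MPS1i and 2 DMSO libraries. The NCI-H647 libraries were depleted of ribosomal RNA and the NCI-H1944 libraries were made from mRNA with another kit, so levels are compared within a line only.

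Homologous recombination repairs broken DNA from the sister chromatid and therefore works mainly in S and G2 phase. Broken ends are first cut back to single strands, a strand then invades the sister chromatid with the help of BRCA2 and its partners, and the joint molecules are finally separated. The Fanconi pathway handles crosslinks between DNA strands: a core complex with the enzyme UBE2T attaches ubiquitin to the FANCD2 and FANCI pair, which brings in nucleases and recombination factors. Many of these genes are transcribed most strongly around S phase in cycling cells. MPS1 is the kinase of the spindle checkpoint, and cells that lose its activity leave mitosis early and missegregate chromosomes.

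Libraries held 13358514 to 13563037 counts after MPS1i and 17243487 to 19550859 after DMSO in NCI-H647, and 43067647 to 43661342 after MPS1i and 38904473 to 39332931 after DMSO in NCI-H1944. KRT8 and KRT18, keratins of simple epithelia, were between 181 and 259 CPM (a gene's counts scaled to a common library total) in the NCI-H647 libraries and between 1580 and 2720 CPM in those of NCI-H1944. After MPS1i their log2 changes were -0.41 and -0.30 in NCI-H647, and 0.29 and 0.19 in NCI-H1944. Other epithelial markers were lower in NCI-H647: CDH1, EPCAM, NAPSA and SFTPB reached at most 0.674, 5.23, 0.153 and 0.0749 CPM. KRT19 reached at most 10.8 CPM there, and its log2 change of 0.35 was opposite to those of KRT8 and KRT18. NKX2-1, TP63 and SOX2 reached at most 2.77, 2.8 and 1.5 CPM in that line. In NCI-H1944 CDH1, EPCAM, TP63 and NAPSA reached at most 39.2, 2.95, 2.13 and 0.87 CPM. NKX2-1, SFTPB, KRT19, KRT5 and SOX2 were at 0 in every NCI-H1944 library, and so was KRT5 in NCI-H647. The summed level of 9 leukocyte and erythroid markers was 229 to 231 CPM after MPS1i and 146 to 147 CPM after DMSO in NCI-H647, and 166 to 169 CPM after MPS1i and 72.3 to 75.4 CPM after DMSO in NCI-H1944. CD68, a lysosomal protein gene, gave at least 145 of those CPM in each NCI-H647 library and at least 69.5 in each of NCI-H1944, while PTPRC, the common leukocyte marker, reached at most 0.409 CPM in any library. Of these markers, 2 of 2 tested rose in NCI-H647, against 27.3% of all genes, and 4 of 5 in NCI-H1944, against 13.6%. Apart from CD68 these were near the floor. CD14 averaged 2.27 CPM after MPS1i in NCI-H647, and LYZ, HBA1 and HBA2 averaged 0.578, 1.28 and 1.64 CPM after MPS1i in NCI-H1944. The summed level of 9 fibroblast and endothelial markers was 51.8 to 56.6 CPM after MPS1i and 62.4 to 68.4 CPM after DMSO in NCI-H647, and 47.5 to 48.2 CPM after MPS1i and 30.7 to 34.2 CPM after DMSO in NCI-H1944. The part of these markers in the results was not tested.

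Most of the repair genes fell in NCI-H647, while in NCI-H1944 some fell and a few rose. In NCI-H647, 32 of the 36 genes fell after MPS1i at an adjusted p under 0.05 in edgeR's quasi-likelihood test, against 27.0% of all genes tested in that direction and 54.4% in either. The median log2 fold change was -0.52 over the 36 genes and 0.01 over all 15049 tested. FANCD2, BRIP1, DNA2 and BRCA1 each fell 1.86-fold to 1.89-fold. No member was called higher by edgeR or DESeq2 in that line, and 0 were higher at an unadjusted p under 0.05. In NCI-H1944, 15 of the 36 fell, against 12.4% of all genes, and 3 rose (BRCA2, NBN and CHEK2), against 13.6%, with 26.0% of all genes called in either direction. The count that fell there was 6 with no low-count filter (24972 genes tested, 1006 called lower), and the count that rose was 1 without the first treated library. The median was -0.21 over the members and 0.00 over all 16738 genes. The largest decrease among the members there was that of FANCD2, 1.38-fold. Fold changes were computed after TMM scaling, while CPM are per library total, so in NCI-H647 the fitted log2 changes are slightly lower than the CPM imply: with no scaling factors the median of all genes was 0.054, against 0.005 with them. In bulk RNA, fewer cells in a phase of the cycle and less RNA per cell cannot be told apart.

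Summed over the 36 genes, the NCI-H647 libraries held 1284 and 1300 CPM after MPS1i and 1694 and 1736 CPM after DMSO. The sums in NCI-H1944 were 898 and 862 CPM after MPS1i and 968 and 954 CPM after DMSO. Treated and control libraries did not overlap in either line, and the gap was wider in NCI-H647. In 33 of the 36 genes both treated NCI-H647 libraries lay below both controls, against 33.9% of all genes tested, in 1 gene above them, against 42.5%, and in 2 the groups overlapped. In NCI-H1944 they lay below in 24 genes, against 32.4% of all genes, above in 6, against 28.9%, and overlapped in 6. Across the members, 14 fell in both lines, 15 fell in NCI-H647 without a call in NCI-H1944, and 3 fell in NCI-H647 and rose in NCI-H1944. FANCA fell in NCI-H1944 and was not called in NCI-H647. PALB2, RAD51B and RAD51C were called in neither line. The shares of all genes in these joint classes were not computed, so the counts describe the members only. Over the 36 genes the log2 changes in the lines had a Pearson r of 0.428 and a Spearman rho of 0.474, given as a description across genes, which are not independent.

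**Figure D1:**
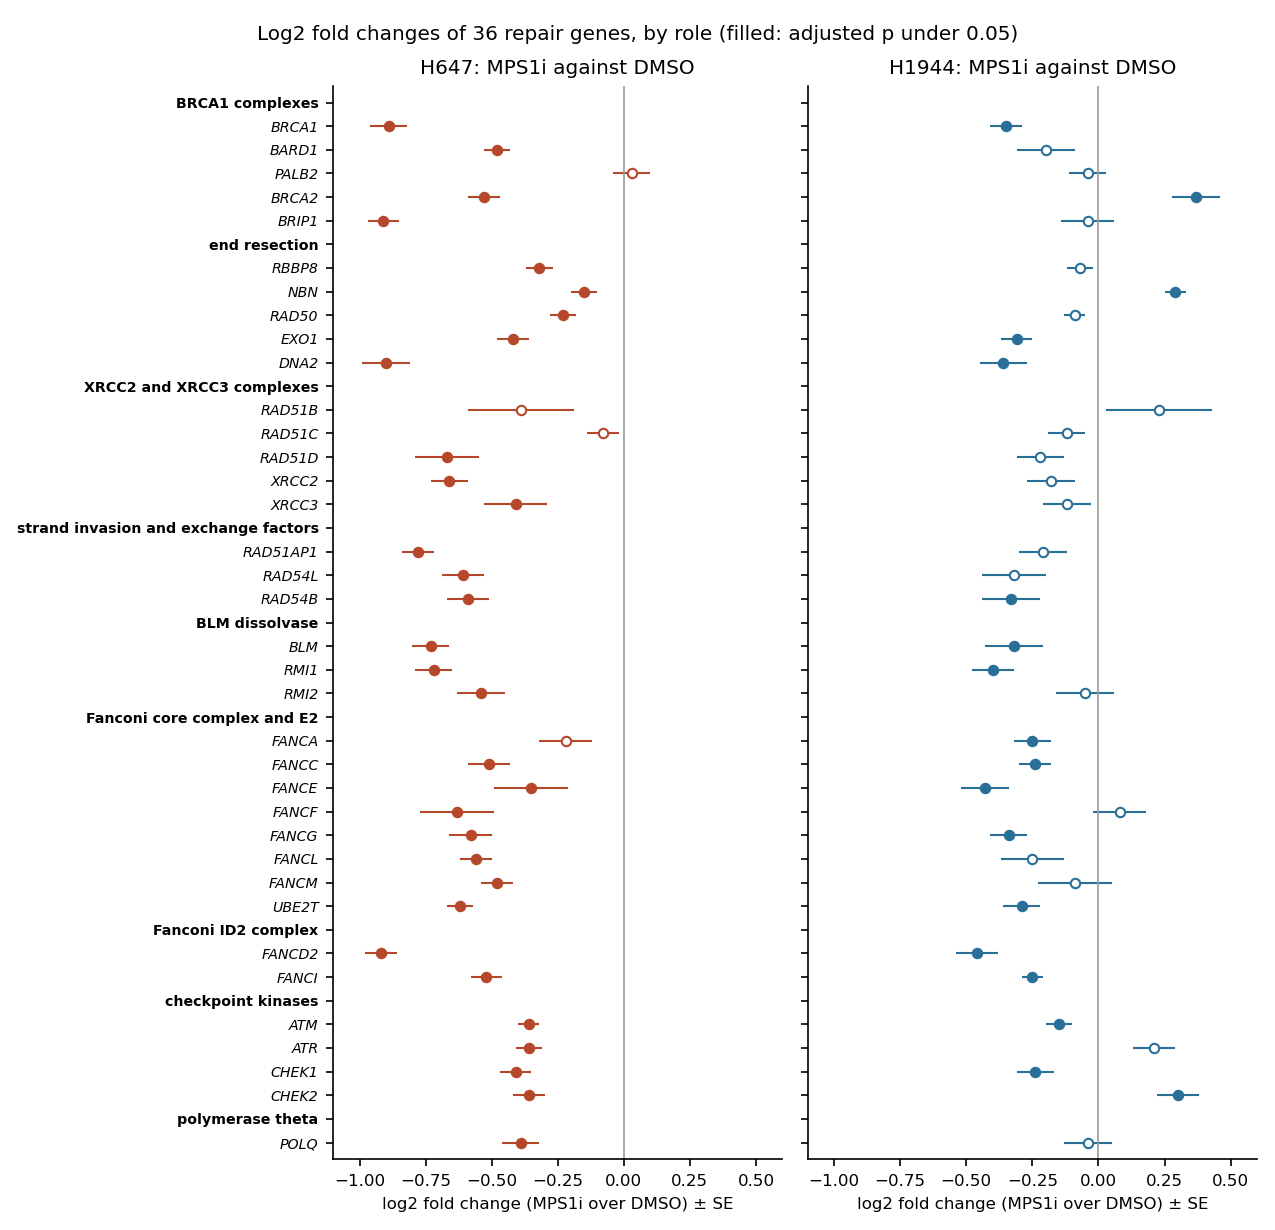
Log2 fold changes of MPS1i over DMSO with the standard error of the fit for the 36 genes, by role, in NCI-H647 (left) and NCI-H1944 (right), with 2 libraries per group. Filled points passed an adjusted p under 0.05. In NCI-H647 all points but PALB2 (0.03) lie below 0, down to -0.92 for FANCD2, whereas in NCI-H1944 they run from -0.46 to 0.37.

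Promoter windows of 4 genes are shown for their different responses. FANCD2 and BRIP1 had the largest falls in NCI-H647, BLM fell in both lines, and PALB2 was called in neither. Each runs from 250 bases before to 50 bases after the RefSeq start (GRCh38.p14). Capitals mark CCAAT, the letters TTTGAA or TTCGAA of the cell-cycle homology region, and the E2F-type letters TTGGCGC or TTCGCGC, on either strand. The letters TTGG are common to TTGGCGC and to CCAAT read on the other strand, so those matches can overlap. The FANCD2 window is chr3:10026187-10026486 on the plus strand, BRIP1 chr17:61863479-61863778 on the minus strand, BLM chr15:90717096-90717395 on the plus strand and PALB2 chr16:23641261-23641560 on the minus strand.
FANCD2: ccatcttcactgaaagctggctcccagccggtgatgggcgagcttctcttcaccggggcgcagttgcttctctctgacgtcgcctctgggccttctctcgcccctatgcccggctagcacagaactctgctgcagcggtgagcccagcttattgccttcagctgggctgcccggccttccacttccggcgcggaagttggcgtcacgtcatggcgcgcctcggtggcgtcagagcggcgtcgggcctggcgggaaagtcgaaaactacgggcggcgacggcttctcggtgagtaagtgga
BRIP1: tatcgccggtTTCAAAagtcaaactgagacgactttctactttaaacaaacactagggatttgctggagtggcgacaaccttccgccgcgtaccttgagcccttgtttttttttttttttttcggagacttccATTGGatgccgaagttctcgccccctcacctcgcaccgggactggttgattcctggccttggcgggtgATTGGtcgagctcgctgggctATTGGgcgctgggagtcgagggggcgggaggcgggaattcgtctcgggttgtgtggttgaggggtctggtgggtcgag
BLM: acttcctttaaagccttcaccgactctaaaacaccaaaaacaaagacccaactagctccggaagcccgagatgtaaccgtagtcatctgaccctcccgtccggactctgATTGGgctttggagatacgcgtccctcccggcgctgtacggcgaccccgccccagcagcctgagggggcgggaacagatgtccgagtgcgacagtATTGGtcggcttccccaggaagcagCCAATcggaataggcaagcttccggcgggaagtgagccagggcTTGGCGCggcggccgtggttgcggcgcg
PALB2: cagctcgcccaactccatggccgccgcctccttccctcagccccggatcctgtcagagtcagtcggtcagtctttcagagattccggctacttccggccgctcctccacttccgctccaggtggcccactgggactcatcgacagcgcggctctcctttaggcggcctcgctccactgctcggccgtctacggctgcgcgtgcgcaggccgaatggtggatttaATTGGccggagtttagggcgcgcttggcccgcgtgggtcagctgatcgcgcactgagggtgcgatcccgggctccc
The BRIP1 window held 3 CCAAT matches and 1 TTTGAA match, and the BLM window 3 CCAAT matches and 1 TTGGCGC match. In PALB2 there was 1 CCAAT match, and none of these letters occurred in the FANCD2 window. Of the 31 members with a RefSeq window in the table used, 15 (48.4%) held CCAAT, against 39.7% of 27305 genes. The E2F-type letters were in 6 (19.4%), namely EXO1, BLM, RMI1, FANCA, FANCC and FANCF, against 6.1% of all genes. For TTTGAA or TTCGAA it was 5 members (16.1%), BRIP1, FANCC, UBE2T, ATM and POLQ, against 19.5% of genes. FANCI, RMI2, DNA2, NBN and RAD54B had no window there. A match describes the letters and is not a bound site. Only the letters named above were searched, so a window without a match can still hold another form of such an element.

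BRCA1 and its direct partners changed unequally. BRCA1 (NCBI gene 672, chromosome 17, 43044295 to 43170245, GRCh38) is a ubiquitin ligase that promotes end resection. In NCI-H647 it had 35.1 and 40.3 CPM after MPS1i, against 69.9 and 65.2 CPM after DMSO, a log2 change of -0.89 ± 0.07 (SE, n = 2 libraries per group, as in all changes below; edgeR adjusted p = 2.08e-08). The groups lay far apart, with the higher treated library well under the lower control. In NCI-H1944 it had 38.9 and 34.7 CPM after MPS1i and 46.7 and 48.2 CPM after DMSO, and fell by 0.35 ± 0.06 on the log2 scale (adjusted p = 0.000285). BARD1, the obligate partner in the BRCA1 ligase, had 40.6 and 42.9 CPM after MPS1i and 54.8 and 57.8 CPM after DMSO in NCI-H647, where it fell by 0.48 ± 0.05. Its NCI-H1944 levels were 7.37 and 6.90 CPM after MPS1i and 8.03 and 8.51 CPM after DMSO, not overlapping but not called (-0.20 ± 0.11, adjusted p = 0.224).

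BRIP1 (FANCJ), a helicase that binds BRCA1, fell in NCI-H647 to 34.7 and 34.4 CPM after MPS1i, against 60.6 and 65.0 CPM after DMSO (-0.91 ± 0.06, adjusted p = 2.79e-09). In NCI-H1944 its libraries overlapped, at 11.1 and 10.7 CPM after MPS1i and 10.7 and 12 CPM after DMSO (-0.04 ± 0.10, adjusted p = 0.799). BRCA2 (NCBI gene 675, chromosome 13, 32315086 to 32400268), which acts after resection and before strand invasion, moved in opposite directions. After MPS1i it had 38.5 and 37.9 CPM in NCI-H647, against 49.9 and 57.2 CPM after DMSO (-0.53 ± 0.06, adjusted p = 4.86e-06). In NCI-H1944 the 14.0 and 13.4 CPM after MPS1i lay above the 10.8 and 10.6 CPM after DMSO (0.37 ± 0.09, adjusted p = 0.00657). That rise was not called without the first treated library (adjusted p = 0.0572). PALB2, which links BRCA1 to BRCA2, had 28.5 and 28.4 CPM after MPS1i and 25.9 and 28 CPM after DMSO in NCI-H647, and 28 and 28.1 CPM after MPS1i and 30.8 and 27.3 CPM after DMSO in NCI-H1944. Its log2 changes were 0.03 ± 0.07 and -0.04 ± 0.07, with adjusted p of 0.720 and 0.728.

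**Figure D2:**
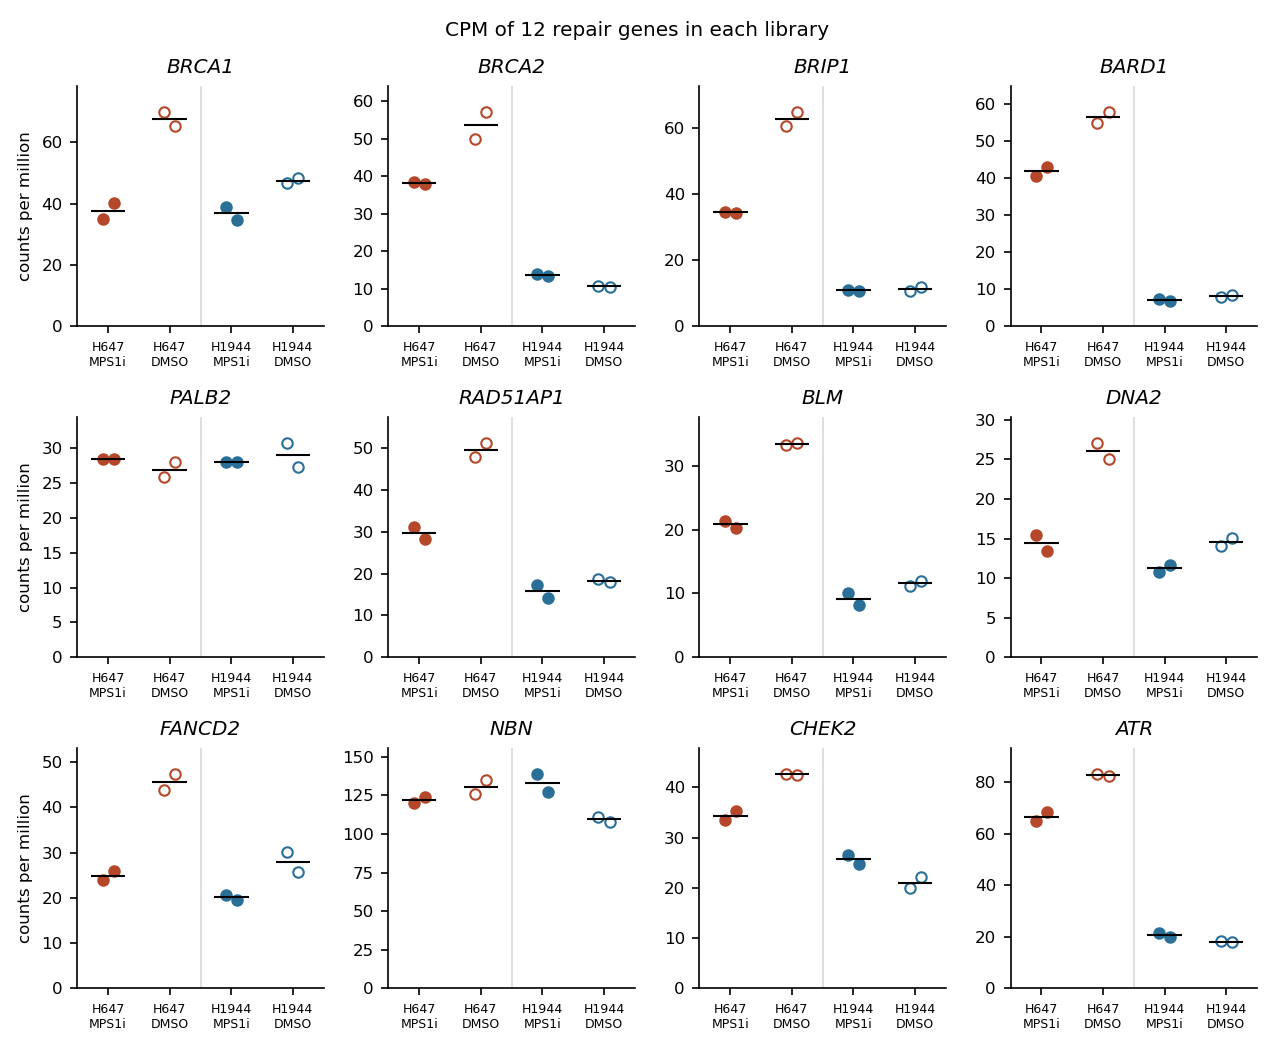
Level (CPM) of 12 repair genes in each library, with MPS1i (filled) left of DMSO (open) and NCI-H647 left of NCI-H1944. Points are libraries, 2 per group, and bars their means. BRIP1 stands at 34.7 and 34.4 CPM after MPS1i and 60.6 and 65.0 CPM after DMSO in NCI-H647, while its NCI-H1944 libraries overlap, and BRCA2 is lower after MPS1i in NCI-H647 and higher in NCI-H1944.

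Among the 5 genes of end resection, DNA2 and EXO1 fell in both lines. DNA2, a nuclease and helicase of long-range resection, had 15.5 and 13.4 CPM after MPS1i and 27.1 and 25.1 CPM after DMSO in NCI-H647 (-0.90 ± 0.09, adjusted p = 5.24e-07). In NCI-H1944 the levels were 10.8 and 11.7 CPM after MPS1i and 14.1 and 15.1 CPM after DMSO (-0.36 ± 0.09), a call lost without the first treated library (adjusted p = 0.0843). EXO1, an exonuclease of the same step, had 25.8 and 26.6 CPM after MPS1i and 33.4 and 34.6 CPM after DMSO in NCI-H647 (-0.42 ± 0.06), and 36.7 and 32.1 CPM after MPS1i and 44.1 and 42.0 CPM after DMSO in NCI-H1944 (-0.31 ± 0.06). None of these groups overlapped. RBBP8 (CtIP), which activates the first cut, had 49.9 and 52.1 CPM after MPS1i and 62.7 and 60.5 CPM after DMSO in NCI-H647 (-0.32 ± 0.05), and was not called in NCI-H1944 (-0.07 ± 0.05, adjusted p = 0.370). RAD50, the ATPase of the MRE11 complex, fell by 0.23 ± 0.05 in NCI-H647 and was not called in NCI-H1944 (-0.09 ± 0.04, adjusted p = 0.151).

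NBN, the subunit of that complex that recruits ATM, was lower in NCI-H647 and higher in NCI-H1944. It had 120 and 124 CPM after MPS1i and 126 and 135 CPM after DMSO in NCI-H647 (-0.15 ± 0.05, adjusted p = 0.0181). This small fall was not called without the second DMSO library (adjusted p = 0.100), without the first treated library (0.0908), by DESeq2 (0.0836) or with no scaling factors (0.101). In NCI-H1944 it had 139 and 127 CPM after MPS1i and 111 and 108 CPM after DMSO (0.29 ± 0.04, adjusted p = 0.000108), and that rise was called without each of the 4 libraries. NBN overlaps OSGIN2 on the opposite strand, whose counts came to 99.8% of those of NBN in NCI-H647. OSGIN2 rose by 0.69 ± 0.05 there and was not called in NCI-H1944 (-0.08 ± 0.03, adjusted p = 0.0897).

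The paralogues RAD51B, RAD51C, RAD51D, XRCC2 and XRCC3 act before strand invasion, in 2 complexes. RAD51D and XRCC2, which belong to the larger one, fell in NCI-H647. RAD51D had 7.82 and 8.01 CPM after MPS1i and 11.6 and 12.8 CPM after DMSO (-0.67 ± 0.12, adjusted p = 0.000282). XRCC2 had 21.4 and 23.2 CPM after MPS1i and 33.3 and 34.7 CPM after DMSO (-0.66 ± 0.07, adjusted p = 8.83e-07). XRCC3, the partner of RAD51C in the smaller complex, had 12.2 and 16.5 CPM after MPS1i and 18.7 and 18.2 CPM after DMSO (-0.41 ± 0.12, adjusted p = 0.00732). Its treated libraries differed widely: without the first the change was -0.21 (adjusted p = 0.113), without the second it was -0.66 and still called, and DESeq2 did not call it (0.0615). RAD51C, which is in both complexes, was not called in NCI-H647 (-0.08 ± 0.06, adjusted p = 0.305). RAD51B had the fewest counts of the 36, with 7.08 and 4.19 CPM after MPS1i and 6.65 and 7.71 CPM after DMSO, and was not called (-0.39 ± 0.20, adjusted p = 0.111). Its change ran from -0.83 without the first treated library (adjusted p = 0.00651) to -0.07 without the second (0.770), and it was also called without the first DMSO library (0.0279). In NCI-H1944 edgeR and DESeq2 called 0 of the 5 paralogues, with changes from -0.22 (RAD51D) to 0.23 (RAD51B) and 1 of them, RAD51D, lower at an unadjusted p under 0.05.

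All 3 factors of strand invasion and exchange fell in NCI-H647. RAD51AP1, which stimulates the formation of joint molecules, had 31.2 and 28.3 CPM after MPS1i and 47.9 and 51.3 CPM after DMSO (-0.78 ± 0.06, adjusted p = 4.59e-08). RAD54L, a motor protein that drives strand exchange, had 16.1 and 16.1 CPM after MPS1i and 24.4 and 23.3 CPM after DMSO (-0.61 ± 0.08). Its relative RAD54B had 15.3 and 16.5 CPM after MPS1i and 22.6 and 23.8 CPM after DMSO (-0.59 ± 0.08). Treated libraries were below controls in each. In NCI-H1944 RAD54B fell by 0.33 ± 0.11, with 8.93 and 8.73 CPM after MPS1i and 12 and 10.3 CPM after DMSO (adjusted p = 0.0344). It was not called there without either treated library (adjusted p of 0.102 and 0.123) or without the first DMSO library (-0.21, adjusted p = 0.306), nor by DESeq2 (0.159). RAD51AP1 (-0.21 ± 0.09, adjusted p = 0.118) and RAD54L (-0.32 ± 0.12, adjusted p = 0.0658) were not called in NCI-H1944. The RAD51AP1 change there was -0.08 without the second treated library (adjusted p = 0.654) but -0.35 without the first (0.0305). That of RAD54L was -0.44 without the second DMSO library (adjusted p = 0.0173) and -0.19 without the first (0.439).

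BLM is the helicase of the complex that dissolves double Holliday junctions, and RMI1 and RMI2 are its scaffold subunits. In NCI-H647 all 3 fell. BLM had 21.4 and 20.3 CPM after MPS1i and 33.3 and 33.6 CPM after DMSO (-0.73 ± 0.07, adjusted p = 2.24e-07). RMI1 had 23.7 and 20.9 CPM after MPS1i and 35.7 and 35.6 CPM after DMSO (-0.72 ± 0.07), and RMI2 14.7 and 15.8 CPM after MPS1i and 20.9 and 22.0 CPM after DMSO (-0.54 ± 0.09). None of the groups overlapped. In NCI-H1944 RMI1 fell to 15.7 and 16.1 CPM after MPS1i, against 22.0 and 20.4 CPM after DMSO (-0.40 ± 0.08, adjusted p = 0.00129). BLM was called at 10.1 and 8.22 CPM after MPS1i and 11.2 and 12 CPM after DMSO (-0.32 ± 0.11, adjusted p = 0.0461). That call was lost without the second DMSO library (adjusted p = 0.131) and without the second treated library (-0.18, adjusted p = 0.363), and by DESeq2 (0.180). RMI2 overlapped between the groups in NCI-H1944 (-0.05 ± 0.11, adjusted p = 0.810).

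FANCD2 and FANCI, the pair that the Fanconi core complex modifies, fell in both lines. FANCD2 (NCBI gene 2177, chromosome 3, 10026370 to 10101932) had 23.9 and 25.9 CPM after MPS1i and 43.9 and 47.4 CPM after DMSO in NCI-H647 (-0.92 ± 0.06, adjusted p = 1.27e-08). In NCI-H1944 it had 20.7 and 19.5 CPM after MPS1i and 30.1 and 25.8 CPM after DMSO (-0.46 ± 0.08, adjusted p = 0.000438). It was the lowest log2 change of the 36 in both lines. FANCI had 52.5 and 46.9 CPM after MPS1i and 69.4 and 69.0 CPM after DMSO in NCI-H647 (-0.52 ± 0.06). In NCI-H1944 its 64.4 and 62.8 CPM after MPS1i lay below 76.8 and 76.0 CPM after DMSO (-0.25 ± 0.04, adjusted p = 0.000307). Pseudogenes of FANCD2 held at most 31 counts over 4 libraries, against 2346 or more for FANCD2.

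UBE2T, the enzyme that conjugates ubiquitin to that pair, had 43.9 and 45.9 CPM after MPS1i and 67.5 and 66.3 CPM after DMSO in NCI-H647 (-0.62 ± 0.05, adjusted p = 1.09e-07). It fell by 0.29 ± 0.07 in NCI-H1944 (adjusted p = 0.00510, and 0.0553 without the second treated library). FANCL, the ligase subunit, had 31.6 and 30.3 CPM after MPS1i and 43.9 and 44.8 CPM after DMSO in NCI-H647 (-0.56 ± 0.06), and was not called in NCI-H1944 (-0.25 ± 0.12, adjusted p = 0.137). Of the 6 other core members all but FANCA fell in NCI-H647.

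The scaffold subunit FANCF had 7.89 and 11.3 CPM after MPS1i and 14.4 and 14.4 CPM after DMSO in NCI-H647 (-0.63 ± 0.14), and without the first treated library its change was -0.40 (adjusted p = 0.0180). FANCG had 17.3 and 17.2 CPM after MPS1i and 26.1 and 23.8 CPM after DMSO (-0.58 ± 0.08), and FANCC 15.6 and 16.2 CPM after MPS1i and 21.7 and 22.0 CPM after DMSO (-0.51 ± 0.08). Controls were above treated libraries in all 3. FANCM, the translocase that anchors the complex to DNA, had 23.4 and 24.6 CPM after MPS1i and 31.9 and 32.9 CPM after DMSO (-0.48 ± 0.06). FANCE, which contacts FANCD2, had 7.30 and 8.16 CPM after MPS1i and 8.85 and 10.3 CPM after DMSO (-0.35 ± 0.14, adjusted p = 0.0420). This last call was lost without the second DMSO library (adjusted p = 0.221), the first treated library (0.183) or the second (0.0531), with no scaling factors (0.0769) or no low-count filter (0.0645), and by DESeq2 (0.242). FANCA was at 13.3 and 13.7 CPM after MPS1i and 15.4 and 15 CPM after DMSO, below its controls without a call (-0.22 ± 0.10, adjusted p = 0.0628).

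In NCI-H1944 FANCE had the lowest change of the core genes, with 12.5 and 13.1 CPM after MPS1i and 17.6 and 17.1 CPM after DMSO (-0.43 ± 0.09, adjusted p = 0.00125). FANCG had 19.4 and 19.8 CPM after MPS1i and 24.3 and 25.9 CPM after DMSO (-0.34 ± 0.07, adjusted p = 0.00220). FANCA fell by 0.25 ± 0.07 (adjusted p = 0.0125) and FANCC by 0.24 ± 0.06 (adjusted p = 0.0108). The FANCA call did not hold when the first DMSO library (adjusted p = 0.132) or the second treated library (0.0927) was left out, and the FANCC call without the first treated library (0.0867). FANCF (0.08 ± 0.10) and FANCM (-0.09 ± 0.14) were not called, with adjusted p of 0.597 and 0.711.

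All 4 checkpoint kinases fell in NCI-H647, while in NCI-H1944 ATM and CHEK1 fell and CHEK2 rose. ATM, which responds to double-strand breaks, had 129 and 127 CPM after MPS1i and 158 and 159 CPM after DMSO in NCI-H647 (-0.36 ± 0.04, adjusted p = 4.95e-06). ATR, which responds to single-stranded DNA at stalled forks, had 65.0 and 68.3 CPM after MPS1i and 83.3 and 82.6 CPM after DMSO (-0.36 ± 0.05). CHEK1 and CHEK2 are the effector kinases that ATR and ATM activate. CHEK1 had 74.5 and 82.0 CPM after MPS1i and 96.6 and 105 CPM after DMSO (-0.41 ± 0.06), and CHEK2 had 33.4 and 35.3 CPM after MPS1i and 42.7 and 42.5 CPM after DMSO (-0.36 ± 0.06, adjusted p = 5.78e-05). For each kinase both treated libraries lay below both controls.

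In NCI-H1944 CHEK2 rose, with 26.5 and 24.8 CPM after MPS1i and 19.9 and 22.2 CPM after DMSO (0.30 ± 0.08, adjusted p = 0.00846). The rise was not called without the first DMSO library (adjusted p = 0.0794) or the first treated library (0.0898). ATR had 21.5 and 19.8 CPM after MPS1i and 18.3 and 17.8 CPM after DMSO and was not called (0.21 ± 0.08, adjusted p = 0.0655), but passed when genes under 1 CPM were left out (0.0436). CHEK1 fell by 0.24 ± 0.07 (adjusted p = 0.0175), a call lost without the first DMSO library (0.138) or the first treated library (0.114) and by DESeq2 (0.0710). ATM fell by 0.15 ± 0.05 (adjusted p = 0.0306), lost without the first DMSO library (0.240) or either treated library (0.0892 and 0.0760) and by DESeq2 (0.124). With no low-count filter, where 24972 genes were tested in NCI-H1944, the falls of EXO1, DNA2, RAD54B, BLM, FANCA, FANCC, UBE2T, ATM and CHEK1 and the rise of CHEK2 were not called (adjusted p from 0.0523 to 0.213). With the first treated library left out, NBN was the only one of the 3 rises still called. Copies of CHEK2 held at most 18 counts over 4 libraries, against 2490 or more for CHEK2. POLQ, the polymerase of microhomology-mediated end joining and an alternative to recombination, had 31.9 and 28.1 CPM after MPS1i and 39.4 and 36.2 CPM after DMSO in NCI-H647 (-0.39 ± 0.07), and overlapped between groups in NCI-H1944 (-0.04 ± 0.09, adjusted p = 0.814).

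The response differed between the lines for 25 of the 36 genes in a joint fit of all 8 libraries (edgeR's quasi-likelihood test of the interaction, adjusted p under 0.05). In all 25 the log2 change was lower in NCI-H647, against 22.7% of 12887 genes tested in that direction and 40.1% in either. Over all genes 2240 were called higher and 2926 lower in NCI-H647, and with no scaling factors 3015 and 2089, where 17 members were called lower. No member was called in the other direction by edgeR or DESeq2, and 0 passed there at an unadjusted p under 0.05. DESeq2 called 15 of the 25 and no other member. The joint fit scales all 8 libraries together, so its differences are not exactly those between the changes fitted per line. The median difference over all genes was -0.036 with TMM factors, -0.011 with RLE factors and 0.045 with no scaling factors. BRCA2 differed most by p: its change was -0.53 in NCI-H647 and 0.37 in NCI-H1944, a difference of -0.93 ± 0.11 (adjusted p = 2.76e-07). For BRIP1, at -0.91 in NCI-H647 and -0.04 in NCI-H1944, the difference was -0.89 ± 0.10 (adjusted p = 3.94e-07). It was -0.46 ± 0.06 for NBN, -0.68 ± 0.10 for CHEK2 and -0.59 ± 0.09 for ATR, with adjusted p of 3.27e-06, 6.31e-06 and 1.12e-05. These 5 genes cover BRCA1 partners, resection and checkpoint kinases, and their differences were called without each of the 8 libraries. The lines differ in library kit and in count table as well. The parts of kit and table in a difference of responses cannot be told apart from that of the line.

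PALB2, RAD51C, FANCA and FANCE had differences between 0.01 and 0.06 with standard errors from 0.10 to 0.16, none of them called. EXO1 (-0.14 ± 0.10, adjusted p = 0.298), CHEK1 (-0.19 ± 0.09, adjusted p = 0.104) and FANCG (-0.26 ± 0.11, adjusted p = 0.0645) were lower in NCI-H647 without passing. RAD54L, RAD54B, XRCC3 and RAD51B had differences from -0.65 to -0.29 with adjusted p from 0.0877 to 0.116. FANCG, CHEK1, RAD54L, RAD54B, XRCC3 and RAD51B each passed when some single library was left out, and each was smaller without another. Their differences without 1 library ran from -0.33 to -0.18 for FANCG, -0.27 to -0.12 for CHEK1, -0.44 to -0.20 for RAD54L, -0.41 to -0.18 for RAD54B, -0.56 to -0.11 for XRCC3 and -1.08 to -0.33 for RAD51B. The smallest were found without the first DMSO library of NCI-H647 for FANCG, its first treated library for CHEK1 and XRCC3, its second for RAD51B, and the second DMSO library of NCI-H1944 for RAD54L and RAD54B. FANCG passed without the second DMSO library of NCI-H1944 (-0.30) or of NCI-H647 (-0.33), and CHEK1 without the second treated NCI-H647 library (-0.27). RAD54L and RAD54B passed without the first DMSO library of NCI-H1944 (0.0290 and 0.0347), XRCC3 without the first treated library of NCI-H1944 (0.0440) or the second of NCI-H647 (0.0158), and RAD51B without the first treated NCI-H647 library (0.0154).

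**Figure D3:**
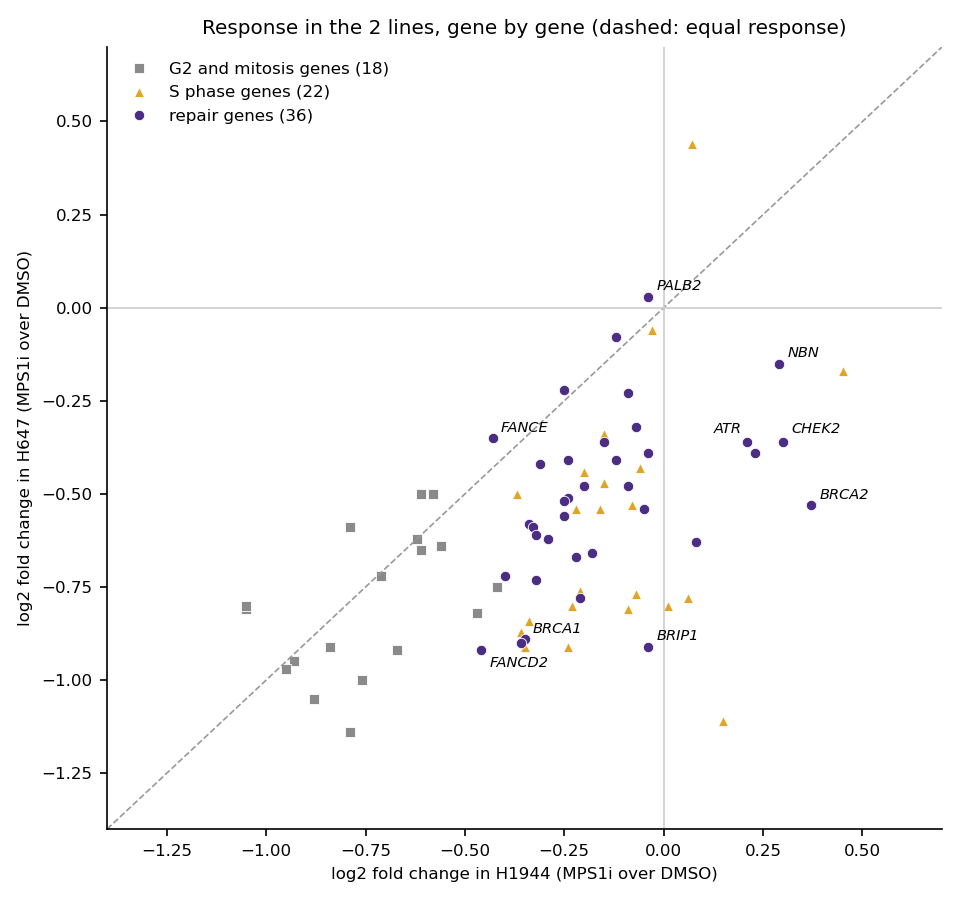
Log2 fold change of MPS1i over DMSO in NCI-H647 (vertical) and NCI-H1944 (horizontal) for the 36 repair genes (circles), 22 S phase genes (triangles) and 18 genes of G2 and mitosis (squares). The dashed line marks equal responses. BRCA2 lies at -0.53 in NCI-H647 and 0.37 in NCI-H1944, below the line, while the squares lie on both sides of it.

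Genes that mark cycling cells were counted beside the repair genes. Of all genes tested, 27.3% rose and 27.0% fell in NCI-H647, and 13.6% rose and 12.4% fell in NCI-H1944. Of 22 S phase genes, 19 fell and 1 rose (CCNE1) in NCI-H647, with a median log2 change of -0.65, and 9 fell in NCI-H1944, with a median of -0.15. Of 18 genes of G2 and mitosis, 18 fell in each line, with medians of -0.80 in NCI-H647 and -0.73 in NCI-H1944. The line difference was called lower in NCI-H647 for 18 of the 22 S phase genes, and for 6 of the 18 G2 and mitosis genes with 2 called higher. Over all genes 22.7% were called lower and 17.4% higher. The median difference was -0.35 over the 36 repair genes, -0.53 over the S phase genes and -0.06 over those of G2 and mitosis, beside -0.04 over all genes. TYMS (thymidylate synthase) fell by 0.91 ± 0.05 in NCI-H647 and 0.35 ± 0.04 in NCI-H1944. TOP2A, the mitotic topoisomerase, fell by 0.91 ± 0.03 and 0.84 ± 0.04 in the same order. CDKN1A, the inhibitor p21, averaged 59.1 CPM after MPS1i and 11.7 CPM after DMSO in NCI-H647 (2.30 ± 0.07), and rose by 0.11 in NCI-H1944 (adjusted p = 0.00318). Of the p53 targets 8 of 19 rose and 3 fell in NCI-H647, and 5 of 20 rose and 4 fell in NCI-H1944. The part of cell-cycle position in the repair genes' changes was not tested.

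Further genes of the same and neighbouring repair pathways were counted as well. Beside the counts here and in the next paragraph, 27.3% of all genes rose and 27.0% fell in NCI-H647. In NCI-H1944 these shares were 13.6% and 12.4%. Of 33 other homologous recombination genes tested, 16 fell and 3 rose in NCI-H647 (median -0.18), and 7 fell in NCI-H1944 (median -0.13). The 3 that rose were RPA2, FBH1 and UIMC1. ABRAXAS1, the scaffold that holds BRCA1 in its ubiquitin-reading complex, fell by 1.00 ± 0.06 in NCI-H647 and 0.31 ± 0.09 in NCI-H1944. RPA1, the large subunit of the protein that coats single-stranded DNA, fell by 0.52 ± 0.04 and 0.21 ± 0.04 in the same order. Of that protein's other subunits, RPA3 fell by 0.59 ± 0.06 and RPA2 rose by 0.41 in NCI-H647. Other Fanconi and crosslink genes fell in 11 of 19 and rose in 2 in NCI-H647 (median -0.23), and fell in 1 of 20 and rose in 3 in NCI-H1944 (median -0.03). POLN, 1 of those 3, was near the floor, with means of 0.415 CPM after MPS1i and 0.0767 CPM after DMSO. USP1, which removes ubiquitin from FANCD2, fell by 0.39 ± 0.04 in NCI-H647, while WDR48, its activating partner, rose by 0.47 ± 0.07 there and by 0.15 ± 0.05 in NCI-H1944.

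Among partners of the damage checkpoint, 10 of 21 fell and 1 rose in NCI-H647 (median -0.16), and 5 fell and 1 rose in NCI-H1944 (median 0.03). H2AX, the histone variant that ATM and ATR phosphorylate at breaks, fell by 0.92 ± 0.05 in NCI-H647 and 0.70 ± 0.04 in NCI-H1944. TIMELESS, of the fork protection complex, fell by 0.95 ± 0.05 in NCI-H647. RIF1, which restrains resection, fell by 0.36 ± 0.05 in NCI-H647 and rose by 0.19 ± 0.05 in NCI-H1944. For end joining 9 of 18 fell and 1 rose in NCI-H647 (median -0.22), against 4 that fell in NCI-H1944 (median -0.13). PRKDC, the catalytic subunit of DNA-PK, fell by 0.85 ± 0.03 in NCI-H647, whereas LIG4, the ligase of that pathway, rose by 0.55 ± 0.06. Excision repair genes fell in 17 of 27 and rose in 2 in NCI-H647 (median -0.28), with LIG1, the ligase that also joins Okazaki fragments, lower by 1.06 ± 0.07. In NCI-H1944 8 of 28 fell (median -0.11). The mismatch repair genes fell in 7 of 7 in NCI-H647 (median -0.45) and 2 of 7 in NCI-H1944 (median -0.16).

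**Figure D4:**
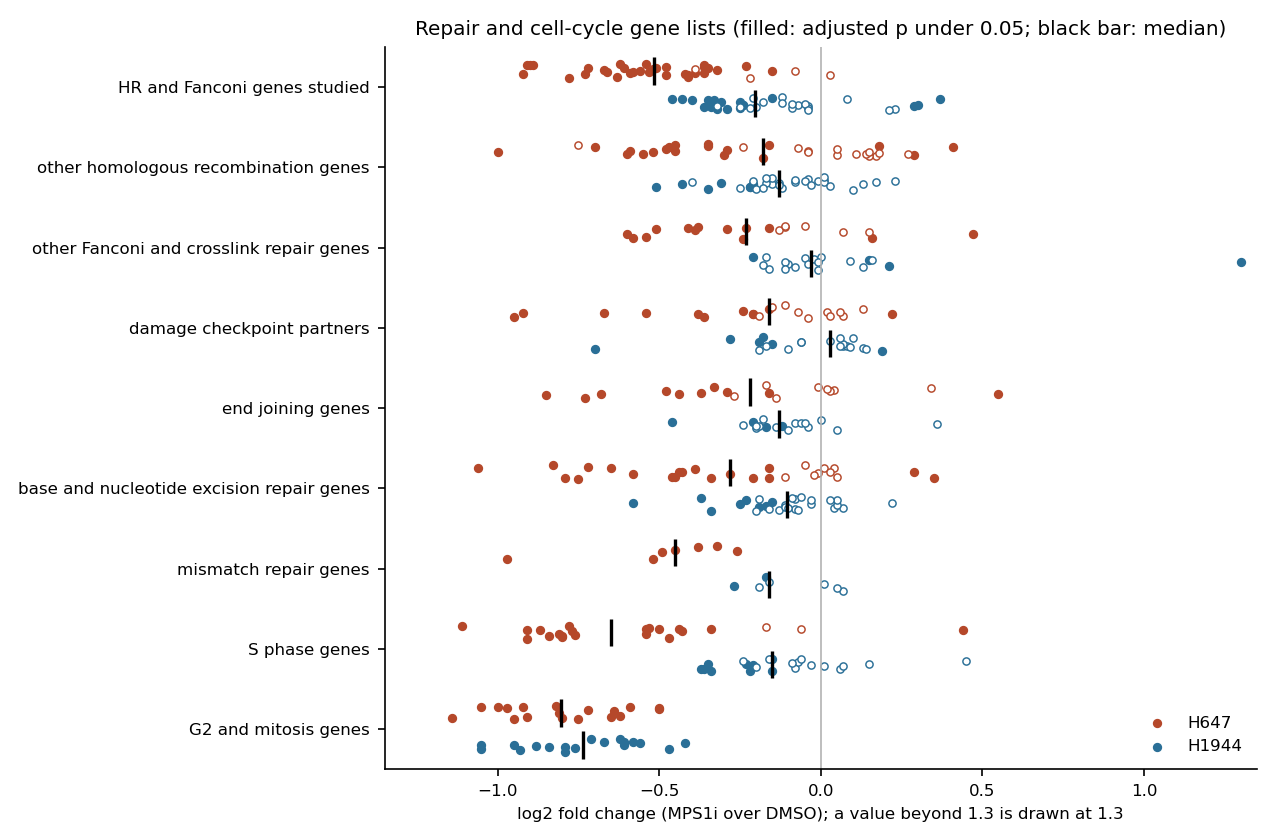
Log2 fold change of MPS1i over DMSO for each tested gene of 9 lists, in NCI-H647 (upper row of each list) and NCI-H1944 (lower row). Filled points passed an adjusted p under 0.05, black bars are medians, and 1 gene beyond 1.3 is drawn at that limit. The median of the 36 repair genes is -0.52 in NCI-H647 and -0.21 in NCI-H1944, while that of G2 and mitosis genes is -0.80 and -0.73.

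Some members share their locus with another gene, and the strand setting of the counting is not given in the sources used here. Of the 36 genes, 28 overlap another gene listed in the NCI-H647 table, and in 11 an overlapping gene held at least 10% of the member's counts. XRCC3 overlaps KLC1, which held 915% of its counts in NCI-H647 and rose by 0.35 ± 0.04 in NCI-H647 and by 0.14 ± 0.04 in NCI-H1944. CHEK1 overlaps STT3A on the same strand, which held 371% of its counts and fell by 0.11 ± 0.04 in NCI-H647 and was not called in NCI-H1944 (-0.04 ± 0.03, adjusted p = 0.472). VRK2, opposite FANCL, and LRRC41, opposite RAD54L, held 172% and 201% of the counts of those members and changed by 0.01 ± 0.05 and 0.10 ± 0.05 in NCI-H647 without a call (adjusted p of 0.891 and 0.123). CIDECP1, opposite FANCD2, held 14.3% of its counts and rose by 0.64 ± 0.18 in NCI-H647, without a call in NCI-H1944 (0.14 ± 0.15, adjusted p = 0.551). RAD54B shares its strand and locus with FSBP, which fell by 0.70 ± 0.14 in NCI-H647, so the division of reads between these 2 is uncertain. FANCA, FANCI, CHEK2 and FANCF lie opposite ZNF276, POLG, HSCB and GAS2. In NCI-H647 these held 75.8%, 46.2%, 31.1% and 12.2% of the members' counts. DECR1, opposite NBN like OSGIN2, held 44.8% of its counts and fell by 0.26 ± 0.06 in NCI-H647. Levels of the members that overlap such genes are less certain than the rest.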

How the data were processed

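RNA-seq of 8 libraries was analysed from 2 deposited tables of whole-number read counts per gene, 1 per line and not normalized by the authors. Per the submitters' processing notes, the tools included STAR and HISAT2, featureCounts, StringTie, cutadapt, Trimmomatic and Trim Galore, and the build was GRCh38. For their versions, their use per table, the annotation and the strand setting, the sources used here give nothing. In the NCI-H647 table the length listed for every member equals its span from start to end, introns included. Whether reads in introns were counted there is not stated, and its part in the changes was not tested. Samples were grouped by their titles. The labels do not say whether replicates are separate cultures: p-values cover the spread between these libraries, possibly a technical one. Replicates differed beyond counting noise (chi-square per degree of freedom 1.96 to 3.93).

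Each whole table was fitted with edgeR 4.0.16 in R 4.3.3 (filterByExpr with minimum count 10 and total 15, TMM factors, quasi-likelihood F test, Benjamini-Hochberg adjustment over all genes tested, threshold 0.05). The line difference was the interaction in 1 fit of all 8 libraries on symbols that passed in both lines, with the entry of highest count for a repeated symbol. Standard errors are the log2 change over the square root of F. Alternatives were DESeq2 1.42.0, other scalings and filters, a replicate block and each library left out.

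Per-library values are given for members called with a log2 change of at least 0.3 in size and for the 5 smallest p of the line difference. Those of PALB2, RAD51B and, in NCI-H647, FANCA were added after their values were seen. From other lists, apart from the cell markers, genes are picked among the 4 smallest p in each line. CDKN1A in NCI-H1944, CCNE1, RPA2, FBH1 and UIMC1 lie outside that rule and were named after their values were seen. The overlapping genes were also named after the members' values were seen. The members, lists and rules were chosen with earlier results of these data known. On simulated counts, 36%, 68%, 82% and 92% of genes changed 1.25-fold, 1.5-fold, 2-fold and 4-fold were called in NCI-H1944 (16414 genes, 4 unchanged ones called), and 40%, 80%, 78% and 90% in NCI-H647 (14764 genes, 5 unchanged ones called). Promoter windows are from RefSeq (GRCh38.p14), matched by symbol for 31 members.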

Additional observations from a re-analysis of the deposited data

Results flagged for a closer look

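The responses of 25 genes differed between the lines in the interaction test of the joint edgeR fit, each lower in NCI-H647. For 14 of them the call held without each of the 8 libraries. Their differences of log2 change, NCI-H647 minus NCI-H1944, were -0.93 for BRCA2, -0.89 for BRIP1, -0.74 for FANCF, -0.68 for CHEK2, -0.60 for RAD51AP1, -0.59 for ATR and -0.56 for both BRCA1 and DNA2. They were -0.52 for RMI2, -0.50 for XRCC2, -0.48 for FANCD2, -0.46 for NBN, -0.36 for UBE2T and -0.23 for ATM. All of these but ATM (adjusted p = 0.0518 with no scaling factors) were also called under every other alternative, DESeq2 included.

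The other 11 differences lost their call without some library. FANCI (-0.29) was lost without the second treated NCI-H647 library (adjusted p = 0.0518) and RBBP8 (-0.28) without the first, where its adjusted p rounded to 0.05. For BLM (-0.44) it was the first treated NCI-H1944 library (-0.28, adjusted p = 0.102) or the second treated NCI-H647 library (0.0570). RMI1 (-0.34) and POLQ (-0.37) were lost without the first DMSO library of NCI-H647 (0.0604 and 0.0992) or the second treated one (0.110 and 0.0881). RAD51D (-0.47) was lost without the second treated NCI-H1944 library (0.0508), the second DMSO library of NCI-H647 (0.0724) or its first treated library (0.0617). BARD1 (-0.30) was lost without the first treated or first DMSO library of NCI-H1944 (0.102 and 0.0923), the first treated library of NCI-H647 (0.116) or either DMSO library there (0.0627 and 0.118).

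RAD50 (-0.16) was lost without the first treated or first DMSO library of NCI-H1944 (0.139 and 0.164), the second treated library of NCI-H647 (0.129) or either DMSO library there (0.0516 and 0.134). FANCL (-0.34) was lost without the first treated or second DMSO library of NCI-H1944 (0.0543 and 0.144), the second treated library of NCI-H647 (0.0938) or either DMSO library there (0.0783 each). FANCC (-0.29) was lost without any NCI-H647 library (0.118 and 0.0555 for the treated ones, 0.0942 and 0.0850 for DMSO), the second treated NCI-H1944 library (0.0766) or its first DMSO library (0.0611). FANCM (-0.41) was lost without any NCI-H647 library (0.116 and 0.0634 for the treated ones, 0.0800 and 0.0926 for DMSO), the first treated NCI-H1944 library (0.123) or its second DMSO library (-0.21, adjusted p = 0.242), and was -0.65 without the first DMSO library of NCI-H1944 (0.00157). These 11 apart from FANCI were also not called by DESeq2 (adjusted p from 0.0554 to 0.197). With 2 libraries in a group, no test for a single outlying library was made.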

How the results depend on the processing

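In NCI-H647 the count of members that fell was 29 by DESeq2, 30 with no scaling factors, 31 with no low-count filter, and 30 to 33 without 1 library. Their median was -0.47 with no scaling factors, -0.54 with no low-count filter, and from -0.54 to -0.48 without 1 library. In NCI-H1944 the count that fell was 11 by DESeq2 and 6 with no low-count filter, where 24972 genes were tested, and 10 to 15 without 1 library, and the count that rose was 1 to 3 without 1 library. The line difference was called for 15 members by DESeq2, 22 with RLE factors, 17 with no scaling factors and 18 to 24 without 1 library. Over all genes NCI-H647 had 4114 higher and 4070 lower (2666 and 2780 by DESeq2), and NCI-H1944 had 2271 and 2075 (1319 and 1006 with no low-count filter). The same numbers do not show that libraries were paired: same-numbered deviations correlated at 0.00257 in NCI-H647 and 0.0440 in NCI-H1944 across genes. With the replicate block the counts were 32 lower in NCI-H647, 15 lower and 3 higher in NCI-H1944, and 25 for the line difference, with medians of -0.52 and -0.21, and it changed no call among the members. No called value changed direction under any alternative run. RAD51B, the member with the fewest counts, had a standard error of 0.20 in both lines, and NCI-H647 was the shallower line. The part of depth was not tested.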
